A study of Rattus norvegicus with 20 samples.

Results

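The mRNA of a failed left ventricle was set against that of a normal one in Dahl rats, a stock whose blood pressure depends on dietary salt in its sensitive line. Both mRNA arrays of the study were used, 2 of 20 arrays in all, and the others hold genomic DNA or chromatin. The failed heart came from a rat of 19 weeks in congestive heart failure that was fed a high-sodium diet. The normal heart came from a Dahl rat of the same age, and the labels give neither its diet nor its line, salt-sensitive or salt-resistant. The design names a left ventricle specimen and the labels name left ventricular myocytes as the source of the RNA. Each heart gave 1 mRNA array, so every value below compares 2 arrays, with no error, no test and no replicate check. A level is the deposited intensity rescaled so that the median over all 31099 probe sets of an array is 100, with values under 10 set to 10. A difference is log2 of the failed level minus log2 of the normal level, so that 1 is 2-fold. Of 14217 genes with a probe set of their own, 9210 had a mean level at or above 100 and were counted, and a gene with several probe sets is represented by the brightest.

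A working ventricle lives on mitochondrial oxidation of fatty acids, lactate, ketone bodies and amino acids, and turns its proteins over through the proteasome, lysosomes and chaperones. In pressure overload these supply systems, the cytoskeleton, the secreted proteins of the interstitium and the cells between the myocytes are all known to alter, alongside the well known natriuretic peptide, sarcomere and collagen genes. The gene groups below were taken from that wider ground, and genes of hypertrophy and matrix are named only where a list or probe set rule brought them in.

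Short promoter stretches of 6 genes are shown first, because stress responses named below have known response elements. Many genes listed for those responses held no match in such a stretch, as counted below. They are RefSeq sequences of GRCr8, from 250 bases before to 50 after the gene's start, written 5′ to 3′ in the direction of the gene, with matches to the motif in capitals. Me1, which makes NADPH, holds the antioxidant response element, searched as TGACNNNGC. Bhlhe41 (a clock repressor), Cited2 (a brake on hypoxia-inducible factor) and Car4 (a membrane carbonic anhydrase) hold the core of the hypoxia response element, searched as ACGTG. Yars1 and Aars1, which charge tRNA with tyrosine and alanine, hold the amino acid response element, searched as TGATGNAAN. Both strands were searched, and a match is a run of letters, not a measured binding site.
Me1 (chr8:96540195-96540494, minus strand): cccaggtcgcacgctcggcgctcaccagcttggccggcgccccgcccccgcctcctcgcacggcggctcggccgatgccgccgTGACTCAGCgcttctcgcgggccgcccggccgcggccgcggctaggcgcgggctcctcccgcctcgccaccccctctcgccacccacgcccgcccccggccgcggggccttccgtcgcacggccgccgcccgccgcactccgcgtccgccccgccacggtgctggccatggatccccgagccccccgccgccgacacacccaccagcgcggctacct
Bhlhe41 (chr4:180569306-180569605, minus strand): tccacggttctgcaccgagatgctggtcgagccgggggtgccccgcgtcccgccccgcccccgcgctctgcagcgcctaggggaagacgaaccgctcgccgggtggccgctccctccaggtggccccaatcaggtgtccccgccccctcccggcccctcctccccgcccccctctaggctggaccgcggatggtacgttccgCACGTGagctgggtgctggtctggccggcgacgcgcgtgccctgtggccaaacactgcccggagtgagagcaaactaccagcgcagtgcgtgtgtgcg
Cited2 (chr1:14132053-14132352, plus strand): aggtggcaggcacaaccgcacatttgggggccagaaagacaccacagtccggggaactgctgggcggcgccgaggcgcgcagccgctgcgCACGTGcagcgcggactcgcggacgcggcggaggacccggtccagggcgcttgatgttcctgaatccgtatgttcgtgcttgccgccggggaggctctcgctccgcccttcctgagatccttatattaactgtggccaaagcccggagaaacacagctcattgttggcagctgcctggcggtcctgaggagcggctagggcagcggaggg
Car4 (chr10:70325108-70325407, plus strand): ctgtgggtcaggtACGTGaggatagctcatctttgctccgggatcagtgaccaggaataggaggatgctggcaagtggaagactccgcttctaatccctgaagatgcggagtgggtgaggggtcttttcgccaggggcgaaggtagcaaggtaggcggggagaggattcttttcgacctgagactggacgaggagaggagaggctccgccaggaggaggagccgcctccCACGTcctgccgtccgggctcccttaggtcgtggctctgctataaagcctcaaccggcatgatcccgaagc
Yars1 (chr5:146819913-146820212, plus strand): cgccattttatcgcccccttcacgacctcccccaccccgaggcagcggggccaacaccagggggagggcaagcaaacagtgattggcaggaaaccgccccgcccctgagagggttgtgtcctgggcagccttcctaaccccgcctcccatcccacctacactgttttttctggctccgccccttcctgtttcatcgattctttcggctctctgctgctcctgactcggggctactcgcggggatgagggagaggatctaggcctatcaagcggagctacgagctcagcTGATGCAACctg
Aars1 (chr19:55908232-55908531, plus strand): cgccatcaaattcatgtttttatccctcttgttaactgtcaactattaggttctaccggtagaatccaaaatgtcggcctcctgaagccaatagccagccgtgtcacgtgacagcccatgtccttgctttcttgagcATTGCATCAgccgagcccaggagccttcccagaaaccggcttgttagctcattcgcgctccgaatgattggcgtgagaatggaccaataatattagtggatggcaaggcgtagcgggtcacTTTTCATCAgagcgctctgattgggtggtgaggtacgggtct

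The 2 matches in Bhlhe41 and in Cited2 are the same 6 letters read on both strands, CACGTG, which is also the E-box that clock proteins bind. Me1 was higher in the failed heart by 2.02, Bhlhe41 by 1.89, Cited2 by 1.10 and Yars1 by 1.08. Aars1 differed by 0.83, less than 2-fold, while Car4 differed by -1.07, with 0.57 at its dimmer probe set. By the brightest probe sets a match thus went with either direction. The hypoxia core was present in 15 of 27 oxygen-sensing genes with a promoter (55.6%), against 19.7% of all 27457 promoters. The amino acid element was present in 7 of 17 synthetase genes (41.2%), against 3.80% of all promoters, and in 2 of 24 genes of the endoplasmic reticulum list (8.33%). The antioxidant element was present in 4 of 19 NRF2 genes (21.1%), against 12.2%. With a match, the median difference was 0.19 for NRF2, 0.37 for oxygen-sensing, 0.62 for synthetase and 0.28 for endoplasmic reticulum genes. Without a match, these medians were 0.50, -0.06, 0.30 and 0.61. The metal response element, searched as TGCNCNC, was present in 17 of 26 promoters of the list that holds the metallothioneins (65.4%), against 50.1%, and the cell cycle homology region, TTTGAA, in 17 of 46 cell cycle genes (37.0%), against 18.1%. A sterol response element, TCACNCCAC, was found in 0 of 19 sterol genes and in 1.13% of all promoters, and a D-box, TTATGNAA, in 1 of 18 clock genes (5.56%), against 3.54%. Among the 11700 promoters of measured genes, the shares were 24.1% (hypoxia core), 2.20% (amino acid) and 14.4% (antioxidant). They were 60.0% (metal), near the share in the metallothionein list, 12.3% (cell cycle), 1.11% (sterol) and 1.97% (D-box). Median GC content was 61.3% for promoters of genes at least 2-fold higher, 59.7% for those at least 2-fold lower and 61.3% for the rest.

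Of the 9210 genes counted, 1092 were at least 2-fold higher in the failed heart (11.9%) and 283 at least 2-fold lower (3.07%), 14.9% in all. On the pre-IP arrays, which hold genomic DNA of both hearts and were processed in the same way, past 2-fold were 7.37% of 6938 genes, 3.85% upwards and 3.52% downwards. The excess of higher genes went with level: of 10 groups of genes of equal size by level, the dimmest had a median difference of 0.02 and the brightest 0.60, with 231 genes higher and 7 lower past 2-fold in the brightest. Quantile normalization, which forces both arrays to the same distribution, took this out: the medians of the 10 groups lay between -0.02 and 0.05, and 562 genes were higher (6.1%) and 524 lower (5.69%). All 562 were among the 1092, and 282 of the 283 lower genes stayed lower. The deposited values without rescaling gave 557 higher (6.05%) and 622 lower (6.75%), since the array medians differ by -0.27. Counting all 14217 genes gave 2108 higher (14.8%) and 1258 lower (8.85%), and asking for a level of 100 in both hearts gave 927 higher (10.8%) and 193 lower (2.24%) of 8601. Where a list median is given below, it is therefore given as scaled and as quantile normalized, to be read against medians over all genes of 0.15 and 0. Counts of members past 2-fold, higher and lower, are followed by those after quantile normalization, and are to be read against the shares of all genes just given. RNA of the 2 hearts also differed in the ratio of 3′ to 5′ control signals: GAPDH had 22.6 in the failed and 11.3 in the normal heart, beta-actin had 12.4 in the failed and 18.2 in the normal heart, and hexokinase had 0.447 in the failed and 0.148 in the normal heart. The part of RNA quality in the differences was not tested.

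**Figure D1:**
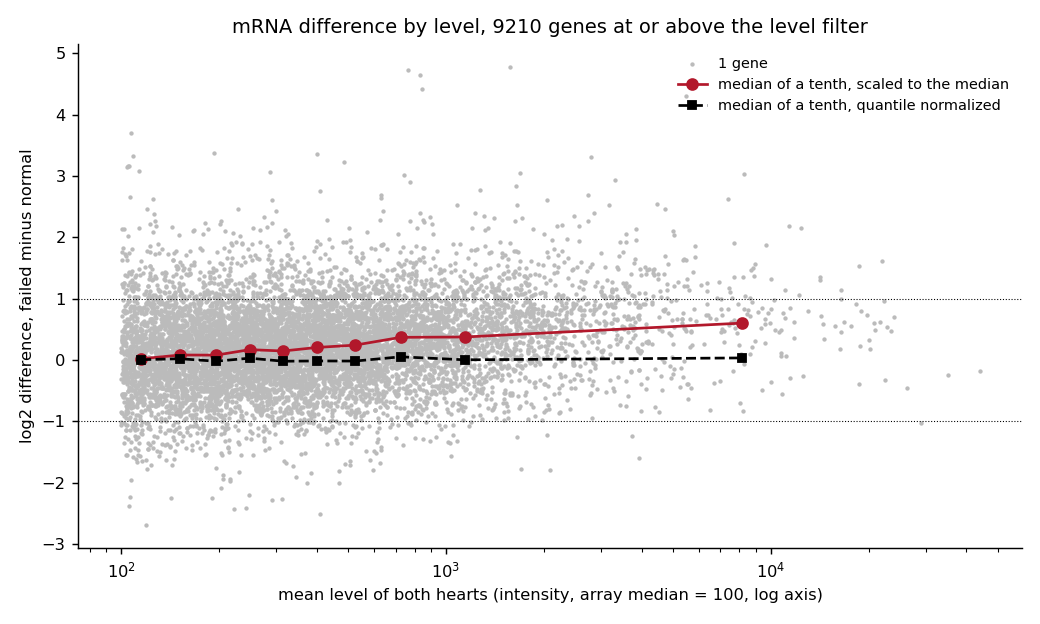
Log2 difference (failed minus normal) of each of the 9210 genes against its mean level in both hearts (log axis), with the median of each of 10 groups by level as scaled (circles) and after quantile normalization (squares). The circles climb to 0.60 at the bright end while the squares stay near 0, and dotted lines mark 2-fold.

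Genes with several probe sets gave the nearest thing to a repeat within these arrays, since probe sets of a gene cover different stretches of its transcript. Of 1773 genes with 2 or more probe sets at or above the level filter, 71 had all of them at least 2-fold higher in the failed heart (4%), 10 had all of them at least 2-fold lower (0.564%) and 8 had probe sets past 2-fold in opposite directions (0.451%). The 20 highest reached into chromatin, growth control, transport and metabolism. Anp32e, a chaperone that removes the histone variant H2A.Z, had levels of 1576 and 1259 at its probe sets in the failed heart, against 253 and 217 in the normal heart, and differed by 2.64 and 2.54. Fibin, a secreted protein first described in the fin bud of fish, differed by 2.90 and 2.16. Ildr2, an immunoglobulin-like membrane protein, differed by 2.06 and 1.97 at the filtered probe sets, and Cap2, which disassembles actin filaments in striated muscle, by 2.09 and 1.92. Levels of both lay between 374 and 461 in the failed heart, against 96 to 116 in the normal heart.

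Metabolic and signalling genes followed in the same set. Pdk1, a kinase that switches off pyruvate dehydrogenase, differed by 1.80 and 1.64, and Esrrg, an orphan nuclear receptor that drives mitochondrial genes in the heart, by 1.76 and 1.61. Tead1, the transcription factor to which YAP binds, differed by 1.56 and 1.48, with levels of 6635 and 2502 in the failed heart, against 2376 and 847 in the normal heart. Sfrp1, a secreted Wnt antagonist, differed by 1.93 and 3.26. Also among the 20 were Kif5b, the heavy chain of conventional kinesin, Msrb3, which repairs oxidised methionine, the RNA-binding gene Rbms3, the progestin receptor Paqr8, the skeletal muscle gene Mybpc2, the Golgi protein gene Gask1b, the microfibril and proteoglycan genes Fbn1 and Vcan, the class II histocompatibility chain RT1-Db1, Ankrd1, and Cp and Lyve1, which are described with their lists. By the rule that selected these genes, the failed level was at least 2-fold above the normal one at every filtered probe set.

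The 10 lower genes were led by muscle and membrane genes. Ky, a muscle protein whose loss in mice bends the spine, had levels of 143 and 74 in the failed heart, against 686 and 941 in the normal heart, and differed by -2.27 and -3.67. Rnf207, a ubiquitin ligase tied to cardiac repolarisation, differed by -1.79 and -2.23, and Kcnd3, the channel of the transient outward potassium current, by -1.54 and -1.79. Plag1, a zinc finger transcription factor, differed by -1.29 and -1.67. Vegfa, the main growth factor of blood vessels, had levels of 2257 and 416 in the failed heart, against 6851 and 1012 in the normal heart, and differed by -1.60 and -1.28. The others were Anks1a, Usp40, Safb2 and Fam81a, all between -1.04 and -1.26, and Myh6, the fast myosin heavy chain, at -1.03 and -3.32.

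**Figure D2:**
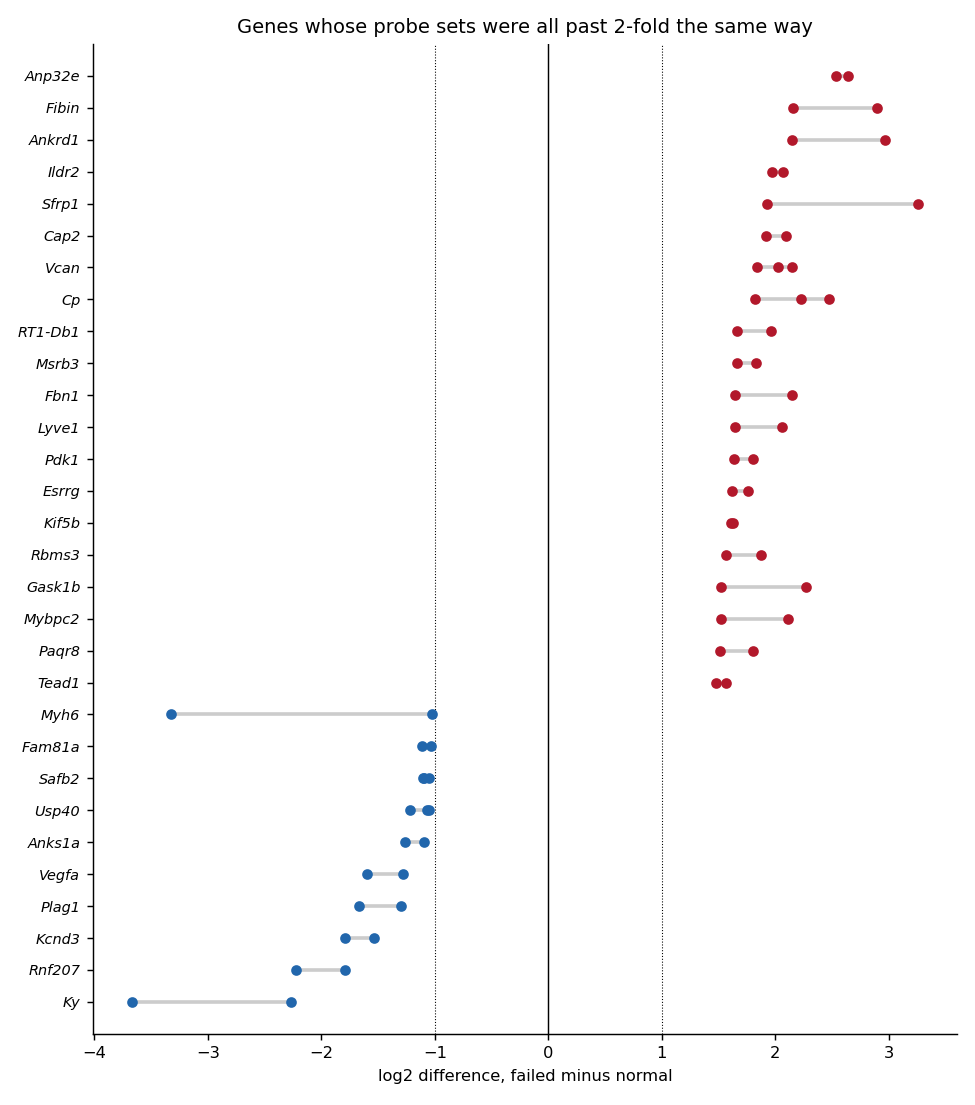
Log2 difference (failed minus normal) of every probe set at or above the level filter for the 20 highest and all 10 lower genes whose probe sets were past 2-fold in the same direction. Each dot is 1 probe set, and Kif5b (1.62 and 1.61) and Safb2 (-1.05 to -1.11) show the closest pairs of values.

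As scaled, the tricarboxylic acid cycle and cytochrome c oxidase lists of energy metabolism had the highest medians. After quantile normalization the mesothelial markers (0.59), the lymphatic markers (0.51) and the cytosolic chaperonin (0.51) lay above both. The tricarboxylic acid cycle list, which takes in the pyruvate dehydrogenase complex, had a median of 0.85 as scaled and 0.45 after quantile normalization, and 12 of 27 counted members were higher past 2-fold and 0 lower (5 and 0 quantile normalized). Me1, the cytosolic malic enzyme, had levels of 648 in the failed and 160.3 in the normal heart, a difference of 2.02. Pdhx, the protein that anchors the E3 subunit in pyruvate dehydrogenase, had 535 in the failed and 148 in the normal heart, and Pdha1, the catalytic E1 subunit, 5524 in the failed and 1641 in the normal heart. Their differences were 1.86 and 1.75, beside 1.80 for the inhibitory kinase Pdk1. A second probe set of Pdha1 was at 0.81, the E1 beta subunit Pdhb at 0.49 and the E3 enzyme Dld at 0.79, both under 2-fold and looked up after the values were seen, and pre-IP DNA of Pdk1 differed by 1.16. The others past 2-fold, looked up after the values were seen, were the succinate dehydrogenase subunits Sdha, Sdhb and Sdhd, the malate dehydrogenases Mdh1 and Mdh2, the succinyl-CoA ligase subunits Suclg2 and Sucla2, and Idh3b, at 1.03 to 1.44. The lowest member was Idh3g, at -0.09.

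The cytochrome c oxidase list had a median of 0.84 (0.47 quantile normalized), with 10 of 21 members higher and 1 lower past 2-fold (1 and 2 quantile normalized). The enzyme has housekeeping subunits and isoforms tied to tissue or oxygen supply, and the differences did not follow this division throughout. Cox6a2, the heart and muscle form of subunit 6A, had levels of 11114 in the failed and 3053 in the normal heart and differed by 1.86, while its liver form Cox6a1, at 3104 in the failed and 1720.2 in the normal heart, differed by 0.85. Other heart and muscle forms did not follow Cox6a2: Cox7a1 differed by -0.28 and Cox8b by -0.30, against 1.21 for the widely expressed Cox8a. Cox4i1, the usual subunit 4, differed by 1.22, whereas Cox4i2, the isoform of low oxygen and of pericytes, had levels of 71.1 in the failed and 181 in the normal heart and differed by -1.35. Cox5b, Cox6b1 and Cox7c, structural subunits, differed by 1.47, 1.40 and 1.35. The factors that make the haem, Cox10 and Cox15, were at -0.52 and -0.79. Apart from Cox4i2, Cox6a2, Cox5b, Cox6b1 and Cox7c, these members were picked after their values were seen. Small subunits of this enzyme have processed pseudogenes that probes can also read.

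Ketone body and branched-chain amino acid use was split within its list, whose median was 0.30 (0.08 quantile normalized), with 6 of 19 members higher and 1 lower past 2-fold (5 and 1 quantile normalized). Slc16a1, the MCT1 carrier of lactate and ketone bodies, had levels of 2009.8 in the failed and 399 in the normal heart, a difference of 2.33. Oxct1, which commits ketone bodies to oxidation, had 5979 in the failed and 1250.3 in the normal heart, a difference of 2.26. Bdh1, which converts hydroxybutyrate to acetoacetate one step earlier, had 60.8 in the failed and 178 in the normal heart, a difference of -1.55, with 0.47 at a second probe set. In the branched-chain branch, Bckdhb, the E1 beta subunit of the dehydrogenase, had 486 in the failed and 131 in the normal heart (1.89), and Pcca, a subunit of propionyl-CoA carboxylase, had 1535 in the failed and 423 in the normal heart (1.86). Their partner subunits Bckdha and Pccb, looked up after the values were seen, differed by 0.22 and -0.26, so the subunits of each enzyme differed by unequal amounts.

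**Figure D3:**
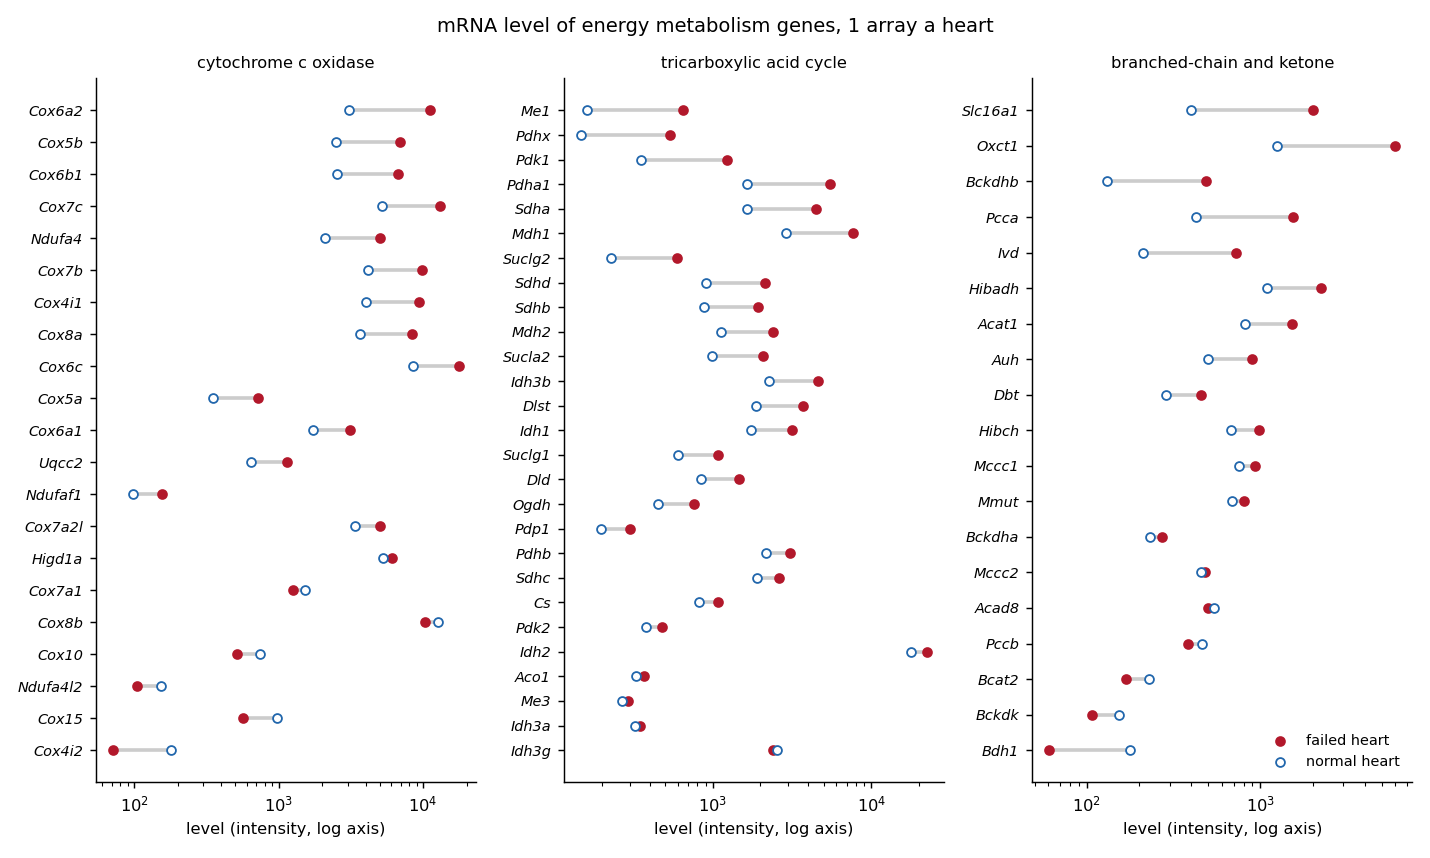
Level in the failed heart (filled) and in the normal heart (open) of every member at or above the level filter in 3 energy metabolism lists, on a log axis, ordered by difference. Filled points lie right of open ones for nearly all tricarboxylic acid cycle genes, and Cox4i2 and Bdh1 show the widest gaps the other way.

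Mitochondrial import and upkeep had a median of 0.59 (0.30), with 9 of 47 members higher and 1 lower past 2-fold (0 and 1 quantile normalized). Slc25a4, the heart form of the ADP and ATP exchanger, had levels of 14439 in the failed and 5226 in the normal heart and differed by 1.47. The matrix chaperonin pair Hspd1 and Hspe1 differed by 1.46 and 1.34, and the outer membrane channel Vdac1 by 1.16. Nrf1, a transcription factor of respiratory genes, had 63.6 in the failed and 163 in the normal heart, a difference of -1.36, while its other probe sets reached 0.55. Glycogen metabolism was led by Gyg1, the primer protein of glycogen, with 10189.5 in the failed and 2490.0 in the normal heart (2.03), and Gbe1, the branching enzyme, with 3986 in the failed and 1224 in the normal heart (1.70). Ugp2, which makes UDP-glucose, and Pgm3 of hexosamine synthesis differed by 1.05 and 1.03, and 4 of the 19 members of that list were higher and 0 lower past 2-fold (2 and 0 quantile normalized).

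The amino acid and nucleotide lists had members past 2-fold in both directions. Glul, glutamine synthetase, had levels of 987 in the failed and 368 in the normal heart (1.42) and Shmt2, the mitochondrial source of one-carbon units, 298 in the failed and 125 in the normal heart (1.26). Gpt, alanine aminotransferase, had 115 in the failed and 529 in the normal heart, a difference of -2.20. Asl of the urea cycle had 93.4 in the failed and 223 in the normal heart (-1.26, and 0.41 at another probe set). Got2, the mitochondrial aspartate aminotransferase, differed by 1.21, with -0.61 at a second filtered probe set, and its pre-IP DNA by 1.35. Azin1, which raises polyamine synthesis, differed by 1.25 in mRNA. Among purine genes Adk, Hprt1 and Nt5e differed by 1.29, 1.38 and 1.11. Rrm1, a subunit of ribonucleotide reductase, differed by 1.13 in mRNA and 1.51 in pre-IP DNA, and Nmnat1, which makes nuclear NAD, by -1.37.

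The lists of genes that make, fold and clear proteins had medians above that of all genes as scaled, and all but the list of atrophy ligases also after quantile normalization. Translation factors had a median of 0.79 (0.29), with 8 of 29 higher and 0 lower past 2-fold (2 and 0 quantile normalized), led by Eif3a, the largest subunit of initiation factor 3, at 2967 in the failed and 969 in the normal heart (1.61). Eif1a and Eif3b differed by 1.31 and 1.30. The elongation factor subunit Eef1g differed by 1.14 at the brighter probe set and -3.07 at the dimmer one. The cytosolic chaperonin, which folds actin and tubulin, and prefoldin, which feeds it, had a median of 0.80 (0.51), and all 13 members lay above 0, with 3 past 2-fold: Pfdn1 at 1.12, Cct3 at 1.08 and Cct5 at 1.03. After quantile normalization 0 were, with the same genes at 0.74, 0.74 and 0.51. As scaled, a second filtered probe set of Cct5 was at -0.06. Synthetases had a median of 0.37 (0.15), with Gars1, the glycyl enzyme, at 1.18 and Yars1 at 1.08 past 2-fold among 18 (0 and 0 quantile normalized), a share near that of all genes.

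Chaperones of the endoplasmic reticulum and the unfolded protein response had a median of 0.57 (0.24), with 4 of 31 members higher and 0 lower past 2-fold (0 and 0 quantile normalized), a share near that of all genes. Canx, the lectin chaperone calnexin, had levels of 3060.0 in the failed and 1158 in the normal heart (1.40), and P4hb, protein disulphide isomerase, 2725 in the failed and 1136 in the normal heart (1.26). Dnajb9 and Sdf2l1, a co-chaperone and a partner of BiP, differed by 1.21 and 1.11. For Sdf2l1 the pre-IP DNA differed by 1.79. In the ubiquitin system Uchl3, a deubiquitinase, had 254 in the failed and 82.5 in the normal heart (1.62), Trim54, a muscle RING finger protein of microtubules and sarcomere, 8197 in the failed and 3558 in the normal heart (1.20), and Foxo3, which drives atrophy genes in skeletal muscle, 1779 in the failed and 719 in the normal heart (1.31). Other probe sets of Foxo3 reached down to -0.83. Trim63, the atrophy ligase MuRF1, had 377 in the failed and 811 in the normal heart, a difference of -1.10. The median of that list was 0.32 as scaled and -0.12 after quantile normalization, with 3 of 19 higher and 1 lower past 2-fold (1 and 1 quantile normalized).

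Lysosomal proteases stood out within the autophagy and lysosome list, whose median was 0.73 (0.44), with 8 of 35 members higher and 0 lower past 2-fold (3 and 0 quantile normalized). With the mean over the probe sets of each gene the median was 0.48. Ctsk, a collagen-degrading cathepsin, had levels of 831 in the failed and 99.1 in the normal heart, a difference of 3.07. Ctss, Ctsh and Ctsb differed by 1.55, 1.48 and 1.41. Autophagy genes proper had lower values: the 15 counted genes whose symbols start with Atg had a median of -0.18 (-0.31), with 0 higher and 0 lower past 2-fold as scaled. After quantile normalization Atg9a was past 2-fold, at -1.04. Cathepsins are abundant in macrophages and fibroblasts. A macrophage list added after the values were seen had 6 of 12 counted members at least 2-fold higher and 0 lower (4 and 0 quantile normalized), a median of 0.98 (0.83) over 14 measured, and a summed level of 7507 in the failed and 3887 in the normal heart; Itgam was at the floor in both. A fibroblast list added in the same way had 4 of 12 higher and 0 lower (1 and 0 quantile normalized), a median of 0.88 (0.46) and summed levels of 76634 in the failed and 43696 in the normal heart, with no member at the floor. The part of these cells in the result was not tested. In such bulk RNA a change in the number of cells of a type cannot be told apart from a change in RNA per cell.

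Iron, haem and copper genes had a median of 0.63 (0.42), with 7 of 21 counted members higher and 0 lower past 2-fold (4 and 0 quantile normalized). Hamp, the iron hormone hepcidin, which blocks the exporter ferroportin, had levels of 716 in the failed and 118 in the normal heart, a difference of 2.60. Cp, ceruloplasmin, the copper ferroxidase that loads iron onto transferrin, had 629.8 in the failed and 135 in the normal heart, and its 3 probe sets differed by 1.82 to 2.47. Alas1, which starts haem synthesis, had 651 in the failed and 204 in the normal heart (1.67), and the oxygen store myoglobin, Mb, 15434 in the failed and 5202 in the normal heart (1.57). Fech and Hmox2, at 1.24 and 1.13, and Cpox, at 252 in the failed and 126 in the normal heart, were also past 2-fold and were looked up after their values were seen. The lowest counted member was Tfrc, the transferrin receptor, at -0.37.

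The prostanoid list runs from the enzyme that acts on membrane lipid to the receptors. Pla2g4a, which frees arachidonic acid, had levels of 467 in the failed and 168 in the normal heart (1.47). Ptgs2, inducible cyclooxygenase, had 314 in the failed and 35.0 in the normal heart, a difference of 3.16 that rests on a normal level under the filter, and 1.55 in pre-IP DNA. Ptgis, prostacyclin synthase, had 3812 in the failed and 769 in the normal heart (2.31), and Ptgfr, the receptor of prostaglandin F2 alpha, 309.9 in the failed and 50.4 in the normal heart (2.62), with 1.07 at its second probe set. Of 12 counted members 5 were higher and 0 lower past 2-fold (4 and 0 quantile normalized). The median over 25 measured, the others under the level filter, was 0.43 (0.29), and members ran down to -2.97.

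Sterol genes had a median of 0.42 (0.22), which was 0.25 with the mean over probe sets. Scap, which escorts SREBP, had levels of 208 in the failed and 74.7 in the normal heart (1.48), and Fdft1, squalene synthase, 232 in the failed and 112 in the normal heart (1.04). A second filtered probe set of Fdft1 was at -0.55. The cholesterol exporters Abca1 and Abcg1 differed by 1.18 and 1.03, and 4 of 20 members were higher and 0 lower past 2-fold (2 and 0 quantile normalized). Other probe sets of Abcg1 reached down to -0.65. Abca5, a lysosomal transporter of the same family, had 265 in the failed and 56.9 in the normal heart (2.22), while its pre-IP DNA differed by -1.11. Plin2 and Plin3, coat proteins of lipid droplets, differed by 1.26 and 1.08, the only ones of 30 counted triglyceride genes past 2-fold, and that median was 0.20 (-0.02). After quantile normalization 0 were higher and 2 lower past 2-fold.

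Non-sarcomeric actin regulators had a median of 0.64 (0.20), with 9 of 45 higher and 0 lower past 2-fold (6 and 2 quantile normalized), and the median was 0.37 with the mean over probe sets. Enah, which extends actin filaments and sits at intercalated discs, had levels of 3983 in the failed and 688 in the normal heart (2.53). Cfl2, the muscle cofilin, had 2820.4 in the failed and 536 in the normal heart (2.39), and Myh10, a non-muscle myosin of embryonic heart, 665 in the failed and 154 in the normal heart (2.11). Genes of intermediate filaments, the nuclear lamina and plectins had a median of 0.37 (0.06). Of 20 counted members 4 were higher and 1 lower past 2-fold (4 and 1 quantile normalized). Dsp, desmoplakin, had 4391 in the failed and 617 in the normal heart (2.83), with 0.14 at a second probe set. Des, desmin, had 1489 in the failed and 276 in the normal heart (2.43). Cryab, the small heat shock protein that protects desmin, had 18516 in the failed and 5057 in the normal heart (1.87), and Synm, synemin, 2725 in the failed and 813 in the normal heart (1.74), although the probe sets of Synm ran from -1.29 to 2.11. Lbr, a receptor of the nuclear lamina, had 73.1 in the failed and 200.2 in the normal heart (-1.45).

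Microtubule genes had a median of 0.34 (0.19), with 9 of 33 higher and 1 lower past 2-fold (2 and 2 quantile normalized). The plus-end motors Kif5b and Kif1c differed by 1.62 and 1.58. Dctn1, the large subunit of dynactin, differed by 1.84 in mRNA and by 2.42 in pre-IP DNA, and Kif1c by 1.03 in pre-IP DNA. The alpha-tubulins split: Tuba4a had 3698 in the failed and 1157 in the normal heart (1.68) and Tuba8 684 in the failed and 1447 in the normal heart (-1.08), and such close paralogs can share probes. Integrin and dystrophin complex genes had a median of 0.23 (0.01), with 7 of 37 higher and 0 lower past 2-fold (4 and 3 quantile normalized). Gpc1, a glypican, was at 1.60, Itga9 at 1.61, Sspn, sarcospan, at 1.57, and Itgb5 at 1.74, whose probe sets ran from -2.59 to 4.21.

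The medians of the signalling lists lay between 0.03 and 0.64 as scaled. The upper end was the BMP and activin list, at 0.64 (0.36), with 7 of 27 higher and 0 lower past 2-fold (6 and 2 quantile normalized). With a floor of 50 in place of 10 its median was 0.18, below the 0.25 of the Wnt list. Bmp4, a ligand, had levels of 576 in the failed and 201 in the normal heart (1.52), its receptor Bmpr1a 399 in the failed and 136 in the normal heart (1.55), and the follistatin relatives Fstl1 and Fstl3, of which Fstl3 traps activin, differed by 1.93 and 1.43. In the Wnt list, with a median of 0.27 (0.08), 4 of 22 were higher past 2-fold and 0 lower (3 and 0 quantile normalized). These were the secreted Dkk3 (1953 in the failed and 421 in the normal heart, 2.21) and Sfrp1, and the receptors Fzd2 (304 in the failed and 74.6 in the normal heart, 2.03) and Fzd1 (1.07).

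The vessel and nerve guidance list held the lowest counted member of the signalling lists. Plxnd1, an endothelial semaphorin receptor, had levels of 171 in the failed and 975 in the normal heart (-2.51), whereas Sema3c, a ligand of the same class, had 967 in the failed and 269.6 in the normal heart (1.84) and the receptor Plxnb2 322 in the failed and 114 in the normal heart (1.50). The endothelial markers, a list added after the values were seen, had a median of -0.47 (-0.81) over 11 genes, with 0 higher and 0 lower past 2-fold (0 and 3 quantile normalized), no member at the floor, and summed levels of 16825 in the failed and 19159 in the normal heart. That list did not hold Vwf, an endothelial gene placed with the lymphatic and endocardial markers, which was higher by 1.16. The part of endothelial cells in the Vegfa and Plxnd1 values was not tested. In growth factor signalling Fgf1, a fibroblast growth factor made by myocytes, Fgf13, a sodium channel partner, and Axl, a receptor kinase, differed by 1.40, 1.11 and 1.39, and Ntrk2, the receptor of BDNF, by -1.15. Grb14, an adaptor that dampens the insulin receptor, had 598 in the failed and 157 in the normal heart (1.93), Rheb, which turns on mTORC1, differed by 1.01, and Tsc2, which turns Rheb off, had 97.0 in the failed and 242 in the normal heart (-1.32).

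Of the protein kinase A genes, Pkia, the inhibitor peptide of the kinase, had levels of 1966 in the failed and 587 in the normal heart (1.74), and the regulatory subunits Prkar1a, Prkar2a and Prkar2b differed by 1.10, 1.03 and 1.01. All of these are known to hold the catalytic subunit inactive. After quantile normalization the 3 regulatory subunits were under 2-fold, at 0.40, 0.67 and 0.91. The cyclic nucleotide list had a median of 0.11 (-0.01), with 4 of 25 counted members higher and 0 lower past 2-fold (1 and 3 quantile normalized). Gnb3, a G protein beta subunit, had 687 in the failed and 1712 in the normal heart (-1.32), and Gng10, a gamma subunit, differed by 1.24. Mylk3, the cardiac myosin light chain kinase, had 8306 in the failed and 2819 in the normal heart (1.56), the phosphatase subunits Ppp1cb and Ppp2ca differed by 1.05 and 1.03, and Camk2g, a calmodulin kinase, by -1.14. The list of calmodulin and phosphatase genes had 3 of 33 counted members higher and 1 lower past 2-fold (0 and 2 quantile normalized). Dusp3 and Mapk6, at 1.31 and 1.19, were the only ones of 26 counted MAP kinase pathway members past 2-fold, a share below that of all genes. After quantile normalization 0 were higher and 1 lower, with Dusp3 at 0.88 and Mapk6 at 0.90.

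At the membrane, Slc6a6, the taurine carrier, had levels of 2593 in the failed and 1012 in the normal heart (1.36) and Slc29a1, the adenosine carrier, 1132 in the failed and 500.0 in the normal heart (1.18). Slc38a3, a glutamine carrier, had 186 in the failed and 746 in the normal heart (-2.01), and Slc22a5, which brings in the carnitine needed for fatty acid oxidation, 328 in the failed and 669.7 in the normal heart (-1.03). The amino acid and choline carriers Slc43a1 and Slc44a1 differed by 1.30 and 1.29. The list of these carriers had a median of 0.27 (0.21). Of 20 counted members 5 were higher and 2 lower past 2-fold (1 and 3 quantile normalized), and the higher one that stayed was Slc43a1. Fxyd1, phospholemman, which restrains the sodium pump, had 1755 in the failed and 711 in the normal heart (1.30), and the chloride channel genes Clic1 and Clcn3 differed by 1.14 and 1.08, although pre-IP DNA of Clcn3 differed by -1.87. Clic4 lay just past 2-fold, at 10724 in the failed and 5345 in the normal heart. Clcn4 was at -1.09 at its brighter and 1.44 at its dimmer probe set. The ion transporter list had a median of 0.39 (0.07), with 4 of 29 higher and 1 lower past 2-fold (0 and 1 quantile normalized). In the junction list Cdh2, N-cadherin of the intercalated disc, had 2599 in the failed and 1112 in the normal heart (1.22) and Jam3 291 in the failed and 639.7 in the normal heart (-1.14). Its median was 0 (-0.15), with 1 of 16 higher and 1 lower past 2-fold (0 and 1 quantile normalized).

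Secreted protease inhibitors and clotting genes included 8 of 21 counted members past 2-fold higher and 1 lower (6 and 2 quantile normalized), with a median of 0.42 (0.21) over all 42 measured, which was 0.11 with a floor of 50. Serpine2, a thrombin inhibitor of the matrix, had levels of 4869 in the failed and 1063 in the normal heart (2.19), Serpinf1, the vessel-restraining factor PEDF, 2751 in the failed and 630.2 in the normal heart (2.13), and Serping1, the inhibitor of complement C1, 1732 in the failed and 508 in the normal heart (1.77). F13a1, which crosslinks fibrin and is made by macrophages, had 774 in the failed and 246 in the normal heart (1.65), and F3, tissue factor, 77.4 in the failed and 159 in the normal heart (-1.04). ADAM, ADAMTS, lysyl oxidase and prolyl hydroxylase enzymes had a median of 0.15 (-0.06), near that of all genes. Of 32 counted members 7 were higher and 0 lower past 2-fold (3 and 2 quantile normalized). Loxl1, Loxl2 and Lox, which crosslink collagen and elastin, differed by 1.88, 1.45 and 1.12, and the protease Adamts8 by 1.60. The 10 counted genes whose symbols start with Adamts nevertheless had a median of -0.12 (-0.31). Annexins, S100 proteins and galectins had a median of 0.57 (0.38), with Anxa1 at 4209.9 in the failed and 1234 in the normal heart (1.77), S100a6 at 1.49, Anxa2 at 1.40 and Lgals3, galectin-3, at 1.15. In that list 6 of 23 were higher and 0 lower past 2-fold (1 and 0 quantile normalized), and the median was 0.26 with a floor of 50.

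Host defence genes were few but large. Reg3b, a bactericidal lectin, had levels of 3916 in the failed and 183 in the normal heart (4.42), the largest difference in any list. Chi3l1, a chitinase-like glycoprotein, had 1065 in the failed and 158 in the normal heart (2.75, and 1.98 in pre-IP DNA), Lyz2, the lysozyme of macrophages, 7658 in the failed and 1325 in the normal heart (2.53), and Vnn1, which releases cysteamine, 1694 in the failed and 354 in the normal heart (2.26). The classical liver acute phase genes in that list were dim. Its median over 29 measured members was 0.27 (0.18), and 7 members were at the floor in at least 1 heart. Tnfrsf12a, the TWEAK receptor Fn14, had 785 in the failed and 204 in the normal heart (1.94), and Myd88, the adaptor of Toll-like receptors, 551 in the failed and 227 in the normal heart (1.28). Interferon response genes did not stand apart, with a median of 0.04 (-0.23) and only Ifitm1 past 2-fold among 34, at 1.24 (0 and 1 quantile normalized). Of the hormone list Spp1, osteopontin, Adipor1, the adiponectin receptor, and Npy, neuropeptide Y, differed by 1.77, 1.05 and 1.02, and Adipor1 by 1.91 in pre-IP DNA.

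The circadian clock list had members past 2-fold in both directions. Per1, a repressor that glucocorticoids induce, had levels of 267 in the failed and 42.4 in the normal heart (2.65), Cry1, its partner, 305 in the failed and 67.9 in the normal heart (2.17), and Bhlhe41, which represses Per genes, 786 in the failed and 213 in the normal heart (1.89). Npas2, an activator that pairs with Bmal1, had 129 in the failed and 292 in the normal heart (-1.18), and Nfil3, a repressor of D-box genes, 131 in the failed and 349 in the normal heart (-1.41). The core activators Clock and Bmal1 and the repressor Per2, looked up after the values were seen, were under 2-fold, at 0.31, -0.22 and 0.38. Per1 and Cry1 each lay under 100 in the normal heart. The labels do not give the hour at which each heart was taken, and its part in these values was not tested. The list's median was 0.38 (0.07), with 3 higher and 2 lower past 2-fold among 16 (3 and 3 quantile normalized), and the median was 0.09 with the mean over probe sets.

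Genes of the glucocorticoid axis appeared in the nuclear receptor list. Hsd11b1, which regenerates active glucocorticoid inside cells, had levels of 1717 in the failed and 388 in the normal heart (2.15), and the receptor targets Tsc22d3 and Fkbp5 differed by 1.11 and 1.04. The pre-IP DNA of Tsc22d3 differed by 1.01. Ncoa4, which also delivers ferritin to lysosomes, differed by 1.02. The list as a whole had a median of 0.13 (0.00), with 4 of 22 higher and 0 lower past 2-fold (1 and 0 quantile normalized).

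The oxygen-sensing list went both ways, with a median of 0.18 (-0.10), 2 of 22 counted members higher and 3 lower past 2-fold (1 and 3 quantile normalized). Cited2 had levels of 704 in the failed and 329 in the normal heart, and Car4 308 in the failed and 646 in the normal heart (-1.07, and 0.57 at another probe set). Pfkfb2, the heart form of the enzyme that makes the glycolytic activator fructose 2,6-bisphosphate, had 318 in the failed and 1109.7 in the normal heart (-1.80, and 0.01 at another probe set), and Pfkfb1, its liver and muscle form, 87.6 in the failed and 245 in the normal heart (-1.49). Vegfa, a classical target of the same response, was lower at both of its probe sets, as given above.

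**Figure D4:**
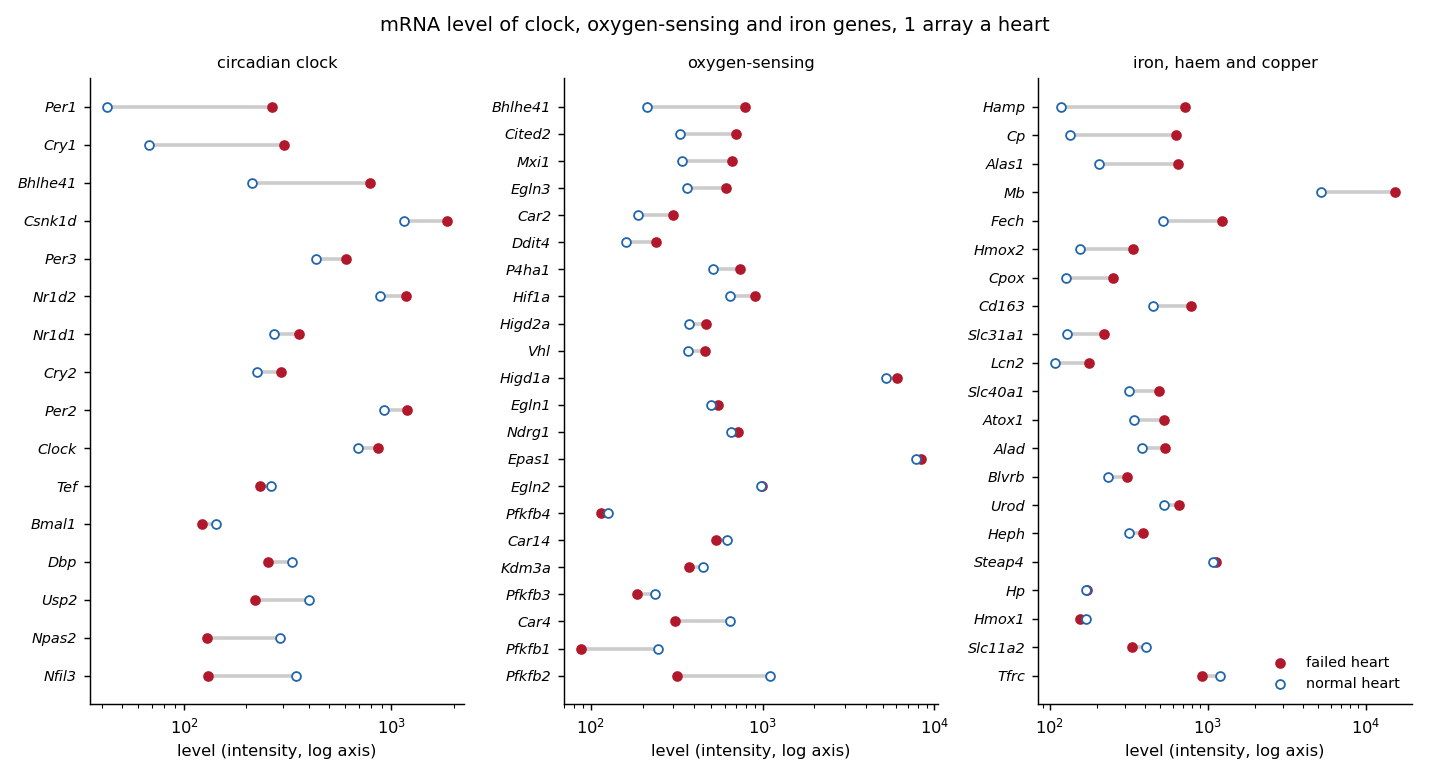
Level in the failed heart (filled) and in the normal heart (open) of every member at or above the level filter in the clock, oxygen-sensing and iron lists, on a log axis, ordered by difference. Per1 and Cry1 stand at the top of the clock panel and Nfil3 and Npas2 at the foot, while the iron panel has wide gaps only at its upper end.

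Among counted cell cycle, apoptosis and p53 genes the largest differences belonged to cyclins. Ccng1, a cyclin induced by p53, had levels of 6942 in the failed and 1082 in the normal heart (2.68) and Ccnd2, a D-type cyclin, 5587 in the failed and 1098 in the normal heart (2.35), but the cell cycle list had a median of 0.02 (0.00) over 57 genes. Mcm2, a replication helicase subunit, had 182 in the failed and 90.8 in the normal heart, just past 2-fold, and its pre-IP DNA differed by 2.05. Among apoptosis and p53 genes Tp53inp2 differed by 1.77, Bcl2l2, a survival factor, by 1.35, Aen by 1.21 and Bok by 1.13. A second filtered probe set of Bok was at -0.52. Nfe2l1, which raises proteasome genes, had 996 in the failed and 310.4 in the normal heart (1.68), and Klf10, Creb3l2 and Crem differed by 1.16, 1.01 and 1.05, and the other probe sets of Crem reached down to -3.18. Hmgn1 and Nap1l1, a nucleosome-binding protein and a histone chaperone, differed by 1.12 and 1.02, and the list of histones and histone chaperones had a median of 0.54 (0.34), with 2 of 15 higher and 0 lower past 2-fold (0 and 0 quantile normalized). Splicing and RNA-binding genes had no member past 2-fold as scaled among 46 (0 and 4 quantile normalized), from Rbfox1 at -0.78 to Celf1 at 0.96, and a median of 0.24 (-0.15).

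Detoxifying genes went in both directions. Srxn1, which repairs oxidised peroxiredoxin and is a target of NRF2, had levels of 343 in the failed and 34.3 in the normal heart (3.32), with the lowest of its 3 probe sets at 0.61, but with Me1 it was among only 2 of 16 counted NRF2 genes past 2-fold (2 and 0 quantile normalized). Aldh1a1, which makes retinoic acid, had 3406 in the failed and 1162 in the normal heart (1.55), and Aldh2, the mitochondrial aldehyde dehydrogenase, 588 in the failed and 258 in the normal heart (1.19). Cbr3, a carbonyl reductase, and Gsta1, a glutathione transferase, differed by 1.70 and 1.38. Gstm7, Akr1b10 and Ces1d, from the same enzyme classes, differed by -1.19, -1.16 and -1.02. Mtf1, the zinc sensor that drives metallothioneins, had 1399 in the failed and 602 in the normal heart (1.22).

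Markers of the cells between the myocytes differed by cell type. The myocyte markers themselves were bright in both hearts: all 14 passed the filter, their summed level was 240226 in the failed and 165193 in the normal heart, none was at the floor, and 6 were higher and 1 lower past 2-fold (1 and 1 quantile normalized), at a median of 0.68 (0.30). Tnnc1 and Myl2 differed by 1.32 and 1.31, and Tnni3 by -0.38. Lymphatic and endocardial markers summed to 10147 in the failed and 5146 in the normal heart, with 4 of 9 higher and 0 lower past 2-fold (3 and 0 quantile normalized). Lyve1, a hyaluronan receptor also found on resident macrophages, had levels of 1455 in the failed and 349 in the normal heart and differed by 1.64 and 2.06 at its probe sets, and Cytl1, Ccl21 and Vwf differed by 1.49, 1.49 and 1.16. The lineage factor Prox1 and the receptor Flt4, which define lymphatic endothelium, were at 0.40 and -0.02, with Flt4 dim at 34.3 in the failed and 34.8 in the normal heart, so the members differed by unequal amounts.

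Mesothelial and epicardial markers had 3 of 7 counted members higher past 2-fold, Lrrn4, Efemp1 and Tcf21, at 1.33, 1.22 and 1.13, and summed to 2466 in the failed and 1637 in the normal heart. Of the defining genes, Wt1 and Tbx18 differed by -0.07 and -0.05, Msln was dim at 51.2 in the failed and 47.2 in the normal heart, and Bnc1 was at the floor in both. Pericyte markers had a median of -0.05 (-0.14) and summed levels of 7386 in the failed and 8367 in the normal heart. Their lowest member was Cox4i2, while Rgs5 and Pdgfrb differed by 0.44 and 0.14. Smooth muscle markers, a list added after the values were seen, were lower as a group: 6 of 8 were at least 2-fold lower (0 and 7 quantile normalized), the median was -1.12 (-1.35), and the summed level was 6689.6 in the failed and 11816 in the normal heart, with no member at the floor. The part of vessel wall cells in the Cox4i2 value was not tested.

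Nerve and Schwann cell markers had 2 of 11 counted members higher and 1 lower past 2-fold (2 and 1 quantile normalized), and summed to 11424 in the failed and 8342 in the normal heart. The myelin gene Pmp22 had 4082 in the failed and 981 in the normal heart (2.06), and Cnp, also of myelin, had 1404 in the failed and 466 in the normal heart (1.59). Another probe set was at 0.49 for Pmp22 and at -0.70 for Cnp. Both genes are also expressed outside nerve. Sox10, the lineage factor of Schwann cells, had 46.4 in the failed and 242 in the normal heart (-2.38) and Nefl was at the floor in the normal heart. Lymphocyte, mast cell and neutrophil markers were dim: 7 of 29 measured passed the filter, their summed level was 1876 in the failed and 1914 in the normal heart, Kit was at the floor in both, and Csf3r and Cd3e were at the floor in the normal heart. The T cell receptor chain Cd247, the only one past 2-fold, had 80.0 in the failed and 167 in the normal heart (-1.06, and 0.19 at another probe set).

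Over all 58 lists, 54 had a median above 0 as scaled and 43 after quantile normalization, 46 lay above the median of all genes, and the medians of 10 changed sign between the scalings. The lists with a median of at least 0.4 after quantile normalization were 7: the tricarboxylic acid cycle, cytochrome c oxidase, the chaperonin, autophagy and lysosome, iron, and the lymphatic and mesothelial markers. The lists held 1816 genes, 50 of them in more than 1 list.

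**Figure D5:**
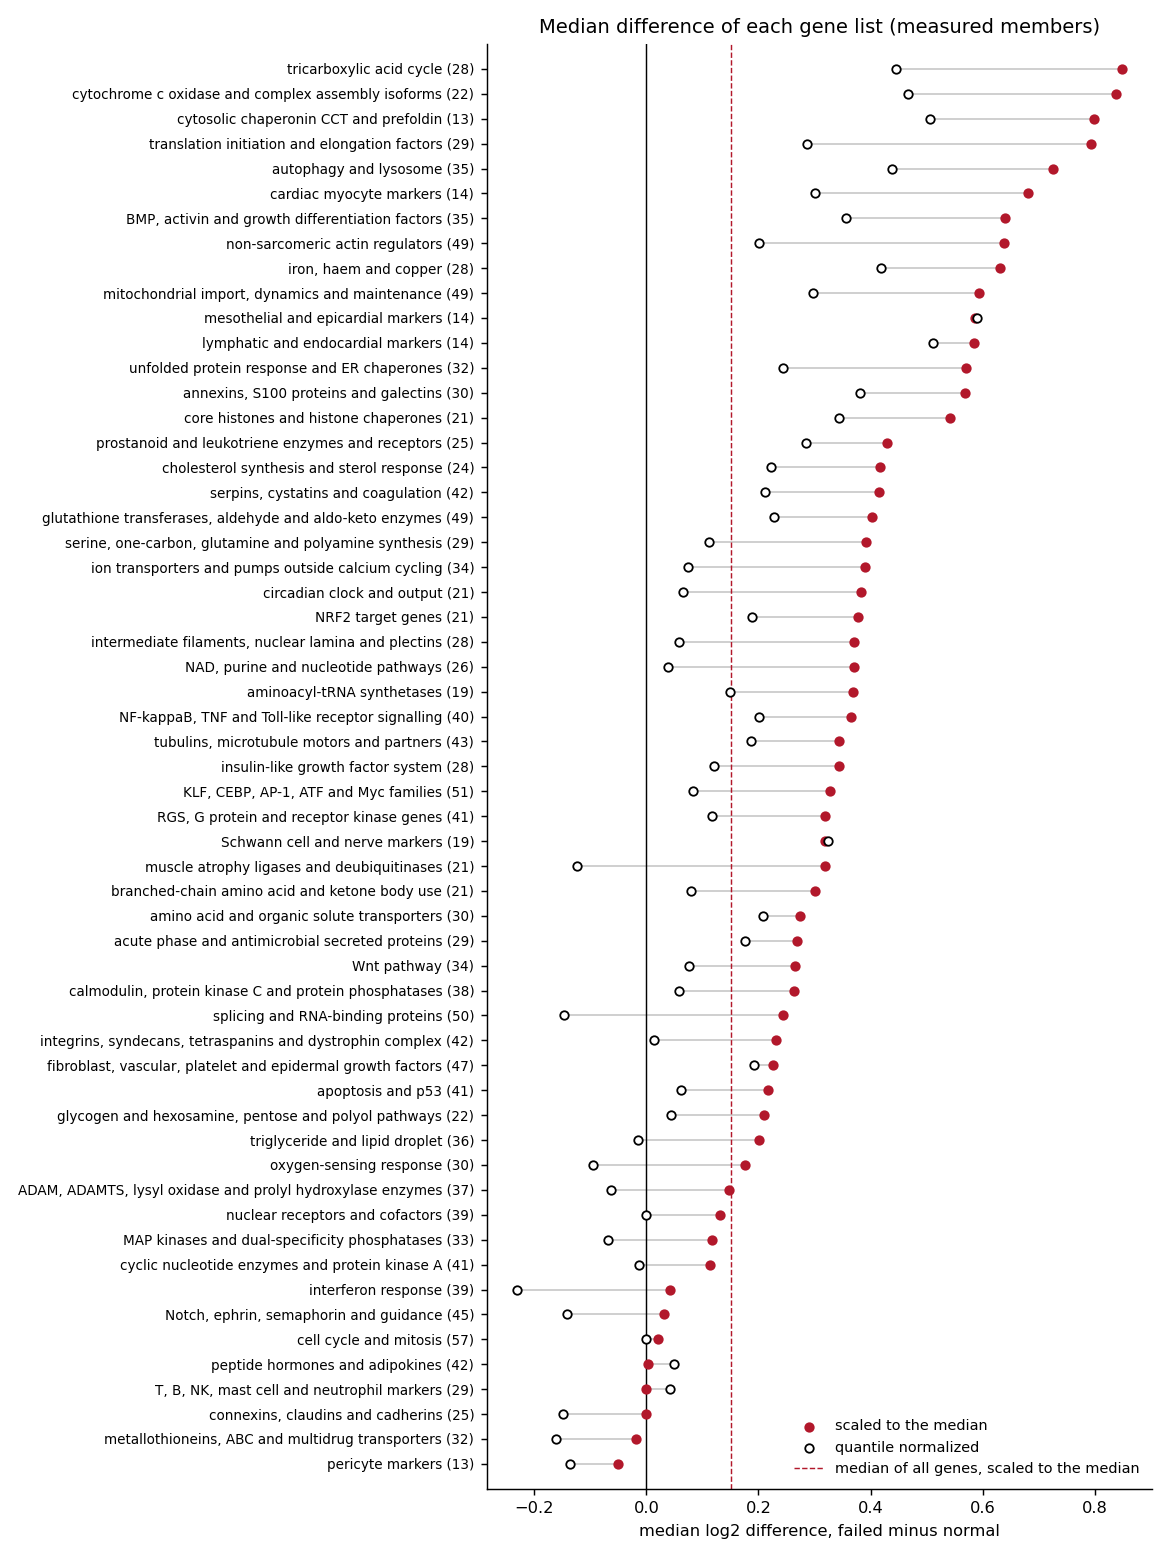
Median log2 difference (failed minus normal) of the measured members of the gene lists, 1 of the 58 left out, with the number of members in brackets, as scaled (filled) and after quantile normalization (open). The tricarboxylic acid cycle and cytochrome c oxidase stand highest as scaled, at 0.85 and 0.84, and the pericyte markers lowest, at -0.05. The dashed line marks the median of all genes, 0.15.

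As scaled, genes grouped by the letters of their symbols, with no list drawn up by hand, put mainly mitochondrial and protein-making families at the top. Of 103 families with 10 or more counted genes, the highest medians belonged to Cox (0.85), Ndufa and Ndufb of respiratory complex I (0.84 and 0.80), the small membrane proteins Smim (0.77), the inner membrane translocases Timm (0.75), the ribosomal proteins Rpl (0.74), the mitochondrial ribosomal proteins Mrpl (0.66) and the proteasome lid and base Psmd (0.66). After quantile normalization these medians lay between 0.15 for Rpl and 0.52 for Smim, and of these families Rpl moved the furthest. The breadth differed from the size. As scaled, 7 of 46 Mrpl genes were past 2-fold, not far above the share of all genes, and 1, Mrpl38, lay under 0. Of 14 Psmd genes 4 were past 2-fold, with Psmd14, a deubiquitinase of the lid, highest at 1.39. Those past 2-fold after quantile normalization were Mrpl2 (1.16), Mrpl50 (1.13), Psmd14 (1.09) and Psmd8 (1.08). Probe sets of Rpl genes can read their many pseudogenes.

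Inpp, the inositol phosphatases, had the lowest median, -0.45 (-0.60 quantile normalized), with 9 of 10 genes under 0 and none past 2-fold as scaled. After quantile normalization Inpp5b was past 2-fold, at -1.23. Next were the cytochrome P450 genes Cyp, at -0.23 (-0.42), with 4 of 16 lower past 2-fold, joined by Cyp4f6 after quantile normalization (-1.07). The lowest of these, Cyp2e1, which oxidises ethanol and ketones, had 54.4 in the failed and 211 in the normal heart (-1.95), and the only one higher past 2-fold, Cyp11a1, which starts steroid synthesis, had 178 in the failed and 65.2 in the normal heart (1.44). Atg, the orphan receptors Gpr (-0.16), the leucine-rich repeat genes Lrrc (-0.13), Adamts, the Integrator subunits Ints (-0.11) and the basal transcription factors Taf (-0.10) completed the 8 lowest as scaled. After quantile normalization Ints (-0.24) and Taf (-0.17) lay above the family Dennd (-0.30), which was outside these. Named members of families outside the lists were chosen after their values were seen.

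Genomic DNA of the named genes was read on the pre-IP arrays as a check of the probe sets themselves. Of the 230 named genes past 2-fold in mRNA, 16 were past 2-fold in the same direction in pre-IP DNA and 10 in the opposite direction. Together these were a larger share than the 7.37% of 6938 genes past 2-fold on those arrays (3.85% upwards, 3.52% downwards). The 6938 had passed a pre-IP level filter that was not asked of the named genes. The genes with the same direction included Dctn1, Mcm2, Chi3l1, Adipor1, Sdf2l1, Ptgs2, Rrm1 and Got2, whose values stand above. They also included Pdk1 at 1.16, Shmt2 at 1.13, Sspn at 1.12, Cytl1 at 1.12, Ky at -1.04 and Myh6 at -1.06. In the opposite direction were Clcn3, Abca5, Ces1d, Prkar2b at -1.57 and Bckdhb at -1.08 in pre-IP DNA. So were Efemp1 at -1.72, Rbms3 at -1.21, Msrb3 at -1.09, Itga9 at -1.06 and Nfil3 at 1.06. Of the named genes past 2-fold, 106 had 2 or more probe sets, and in 75 of these all probe sets had the same sign. Opposite signs are not given above for every such gene. Those left out included Rbms3 (down to -1.08), Prkar2a (-0.53), Dkk3 (-0.42) and Ntrk2 (up to 0.37). After quantile normalization 150 of the 230 stayed past 2-fold in the same direction.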

How the data were processed

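Left ventricular mRNA of a failed and a normal Dahl rat heart was measured on Affymetrix Rat Genome 230 2.0 arrays, 1 array for each heart. Per the labels, total RNA was amplified into biotin-labelled cDNA. The authors deposited intensity values on a linear scale, 1 for each of 31099 probe sets, 57 of them controls; no label or header names the summarising tool. Both arrays were brought to a median of 100, floored at 10 and put on the log2 scale (Python 3.11.15, numpy 2.4.6, pandas 2.3.3). Of the probe sets, 20826 belong to 1 gene in the platform annotation, 436 to several and 9780 are unnamed here, and the last 2 kinds were left out. The identifiers of 14167 of 14217 genes were found in the RefSeq table.

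The brightest probe set represented a gene, genes with a mean log2 level at or above that of 100 were counted, and 2-fold was the threshold. Array intensities give no counts, so precision is limited by 1 array a heart, and no test was possible. Alternatives were deposited values, quantile normalization, floors of 50 and 1, the mean over probe sets, and other level filters. Counting was tested on simulated data.

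The gene lists, members and rules were chosen with earlier results of these data known. Named were up to 4 members each way past 2-fold in each list, or else the highest and the lowest, any member of lists with up to 15 measured members, the 20 largest differences each way among genes whose probe sets agree, and the 8 highest and lowest symbol families; predicted genes were passed over, and 1 list of the 58 is not reported here. The macrophage, fibroblast, endothelial and smooth muscle markers were added after the values were seen.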

Additional observations from a re-analysis of the deposited data

How the results depend on the processing

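The balance of directions depended on the scaling. Genes at least 2-fold higher in the failed heart numbered 1092, against 557 as deposited and 562 with quantile normalization, and 2108 with no level filter. Genes at least 2-fold lower numbered 283, against 622 as deposited and 524 with quantile normalization, and 1258 with no level filter. These shifts follow from the construction: the scalings move the median, or the bright genes, of one array against the other, and dropping the filter counts more genes. Floors of 50 and 1, the mean over probe sets and a level of 100 in both hearts kept both counts within 1.5 times. Of 232 named differences, 4 reversed, 3 of them with the mean over probe sets, which then average opposite values: Clcn4 to 0.18, Crem to -0.38 and Eef1g to -0.97. With quantile normalization Rock2, at 1.09, reversed to -1.26, where another probe set became the brightest. A different side of 2-fold was reached by 62 named genes as deposited, 80 with quantile normalization and 41 with the mean over probe sets. No list median of 0.5 or more in size reversed, but a floor of 50 moved the lymphatic list to 0.38, the mesothelial to 0.38, the atrophy ligase to 0.20, the nuclear receptor to 0.00 and the acute phase list to 0.00, and the mean over probe sets moved the splicing list to 0.04. No paired analysis was possible because each heart had 1 mRNA array. With 1 array a heart, the spread between animals and between arrays is unknown, and values near 100 or below are the least reliable.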
